A study of Arabidopsis thaliana with 15 samples.

Results

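The regions described here were the H2AK121ub peaks of wild-type Arabidopsis seedlings that lay wholly inside a peak of H3K27me3, called nested peaks. A peak was nested when its start and its end both fell within 1 and the same H3K27me3 peak. By this rule 2614 of the 16310 H2AK121ub peaks were nested, a share of 16.0% (95% Wilson interval 15.5 to 16.6%), and on the 5 nuclear chromosomes the share ran from 14.7% to 17.9%. A further 2934 peaks crossed at least 1 border of an H3K27me3 peak and 10762 peaks were free of H3K27me3. The members were thus chosen by the positions of the peaks in both lists, so their containment, their margins and their place in the surrounding peak are given as a description.

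H2AK121ub is histone H2A carrying a single ubiquitin, placed by Polycomb repressive complex 1 (PRC1) through its RING1 and BMI1 ubiquitin ligases. H3K27me3 is histone H3 with a trimethylated lysine, placed by PRC2 through the methyltransferases CLF and SWN. Both complexes keep developmental genes silent in plant tissues where they are not needed, and DNA-binding proteins that read short sequence elements are known to bring them to some of their target genes.

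The marks were each profiled by ChIP-seq (sequencing of immunoprecipitated chromatin) in whole Col-0 wild-type seedlings aged 10 days after germination (DAG), with 2 replicates for each mark and an input library. The plants grew under long days on MS agar, and whole seedlings mix all of their cell types, so that 2 marks at 1 place need not have been in the same cells. The study also ran sequential ChIP, in which chromatin pulled down for H3K27me3 is pulled down again for H2AK121ub. From it, with PLT5, SOC1 and AG amplified, the study reports that the marks share some nucleosomes at genes with both. The peak lists cannot show this for other genes. The lists give positions alone, with no score, height or value per replicate, and the depth behind a peak is unknown. The study's methods describe a combination with wild-type data from younger seedlings, and whether the lists hold those peaks is not settled. The series also holds emf1, ring1ab and lhp1 mutant libraries, which were not analysed here.

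Stretches of the nested peaks at developmental genes are printed here because they carry the RY element, a short motif whose share is set out further on. The RY element is the sequence CATGCA, or TGCATG on the other strand, which B3-domain proteins such as VAL1 and VAL2 bind, and the RY elements of the FLC intron are known VAL1 sites. Each stretch holds 120 bases from the RefSeq copy of TAIR10, runs 5′ to 3′ along the strand of its gene, holds no annotated UTR base and has its RY elements in capitals. FLC, the MADS-box repressor of flowering (chr5:3178788-3178907, minus strand), has 2 elements in an intron, 541 to 660 bp downstream of the transcription start site (TSS). LBD18, a LATERAL ORGAN BOUNDARIES DOMAIN gene of lateral roots (chr2:18719113-18719232, plus strand), has 2 in an intron, 765 to 884 bp downstream. YUC10, which encodes an auxin synthesis enzyme (chr1:18092295-18092414, plus strand), has 2 in an intron, 614 to 733 bp downstream. PLT2, an AP2-domain gene of the root stem cell niche (chr1:18976351-18976470, plus strand), has 2 upstream of the gene, between positions -825 and -706 from the TSS. KNAT6, a KNOX homeobox gene of the shoot meristem (chr1:8302800-8302919, minus strand), has 1 between positions -268 and -149. WUS, the homeobox gene of the shoot stem cell niche (chr2:7810874-7810993, minus strand), has 1 between positions -182 and -63. SHP1, a MADS-box gene of the fruit valve margin (chr3:21739265-21739384, plus strand), is shown for contrast: its nested peak held no RY element, and the stretch has 112 coding and 8 intron bases, 1105 to 1224 bp downstream.
FLC: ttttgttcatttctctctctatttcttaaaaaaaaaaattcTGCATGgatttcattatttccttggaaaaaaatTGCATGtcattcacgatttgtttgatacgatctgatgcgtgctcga
LBD18: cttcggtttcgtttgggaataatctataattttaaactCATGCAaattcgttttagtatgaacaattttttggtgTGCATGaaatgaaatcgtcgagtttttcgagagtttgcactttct
YUC10: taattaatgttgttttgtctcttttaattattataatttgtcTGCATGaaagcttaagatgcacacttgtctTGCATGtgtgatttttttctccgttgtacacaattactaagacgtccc
PLT2: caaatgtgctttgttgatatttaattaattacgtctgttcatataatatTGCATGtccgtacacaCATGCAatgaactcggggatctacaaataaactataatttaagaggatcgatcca
KNAT6: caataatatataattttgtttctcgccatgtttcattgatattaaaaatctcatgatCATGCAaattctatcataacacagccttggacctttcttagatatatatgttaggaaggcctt
WUS: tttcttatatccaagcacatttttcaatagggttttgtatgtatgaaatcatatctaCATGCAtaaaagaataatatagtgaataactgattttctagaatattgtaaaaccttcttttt
SHP1: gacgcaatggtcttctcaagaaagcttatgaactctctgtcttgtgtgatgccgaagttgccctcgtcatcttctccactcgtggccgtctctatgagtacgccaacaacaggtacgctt

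The nested peaks were of middle length. Their median was 1124 bp (95% order-statistic interval 1076 to 1175), their quartiles 582 and 2059 bp, and they ran from 31 to 14660 bp. The medians of the other H2AK121ub peaks were 2279 bp for crossing and 735 bp for free peaks. Length and nesting are tied, since a long peak has less room to lie inside another. In all, the nested peaks held 4.09 Mb.

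The 2614 nested peaks lay in 1821 of the 4367 H3K27me3 peaks (41.7%), which are called host peaks here. A single nested peak was found in 1281 host peaks (70.3%), 2 in 378 host peaks and 3 or more in 162. The host peaks were long, with a median of 5483 bp (5266 to 5782), against 1833 bp (1767 to 1913) for the H3K27me3 peaks without a nested peak, and longer H3K27me3 peaks have more room for one. Host peaks with at least 2 nested peaks had a median of 8863 bp (8418 to 9355), and those with a single one 4298 bp (4101 to 4545). Together, the nested peaks of a host covered a median of 35.3% of it (33.7 to 36.9), and 1 nested peak covered a median of 18.6% (17.5 to 19.6). Neighbouring nested peaks of the same host were separated by a median of 1685 bp (1557 to 1793, 793 pairs). In 533 of these pairs both peaks lay on a protein coding gene body, and 450 of the 533 (84.4%) had the peaks mainly on different genes.

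The host peak with the most nested peaks held 9 of them over 21479 bp (chr1:26709524-26731002). They were 333 to 2126 bp long and covered 47.5% of the host, and each of its 8 genes had one on its body. These genes include MLP28, MLP31, MLP34 and MLP43, which encode major latex protein-like proteins, and CLE17, which encodes a signalling peptide. The next host peak held 7 nested peaks over 21723 bp (chr3:18586770-18608492), on 6 of 9 genes, most of them annotated as DUF247 transmembrane proteins. Another 6 host peaks held 6 each. One of these (chr4:8729701-8768462) spans 38762 bp with the P450 genes CYP702A2, CYP702A3, CYP705A1 and CYP705A2 and the triterpene synthase gene PEN1, and only 11.2% of it lay under nested peaks. It was picked from these 6 after its genes were seen. Among the other hosts with 6 nested peaks were one with genes of several kinds, such as GDU7 and bZIP43 (chr5:15518983-15542788), and one with GulLO2, GulLO5, GulLO6 and the secondary wall NAC gene NST1 (chr2:19205193-19227247).

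The distance of the nested peaks from the borders of their host varied widely. The smaller of the 2 margins had a median of 663 bp (620 to 727). It was under 100 bp for 457 nested peaks (17.5%) and under 500 bp for 1133 (43.3%), while 35 peaks had both margins under 100 bp. Just inside the rule were 7 peaks that shared a border with their host, such as a 2468 bp peak at AT1G61840 (chr1:22847179-22849646) and a 1244 bp peak at GH9B11 (chr2:18391884-18393127). Just outside it were 6 crossing peaks that left the H3K27me3 peak by 1 bp, among them a 1389 bp peak at AT3G04990 (chr3:1383899-1385287) and a 498 bp peak at MSS1 (chr5:9243706-9244203). At most 10 bp separated 51 nested peaks and 56 crossing peaks from the other side of the rule.

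For the 2156 nested peaks on a protein coding gene, the offset was read along the gene's strand, with 0 for a peak at the upstream end of the host and 1 for a peak at its downstream end. The median position was 0.522 (0.490 to 0.548), near the middle. The upstream margin had a median of 2092 bp (1964 to 2312) and the downstream margin 1767 bp (1613 to 1933). The ends of the host held more nested peaks than its middle. Of 5 equal parts of the possible positions, the most upstream held 24.1% of the peaks (22.3 to 25.9), the middle one 15.3% (13.8 to 16.9) and the most downstream 27.4% (25.6 to 29.3), where an even spread gives 20%. Peaks with a TSS inside followed the same outline, with 26.0%, 14.7% and 26.1% in the upstream, middle and downstream part. So did peaks that filled at most 20% of their host, with 22.2%, 16.3% and 27.7%. Among the 1775 peaks with both margins of at least 100 bp, the upstream part held 20.2% (18.4 to 22.2). Their middle part held 17.9% and their downstream part 23.9% (22.0 to 25.9). Leaving out peaks near a border removes end positions by construction, so an even spread would give less than 20% at the ends here. These shares therefore cannot show whether the upstream excess lay at the border alone.

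**Figure D1:**
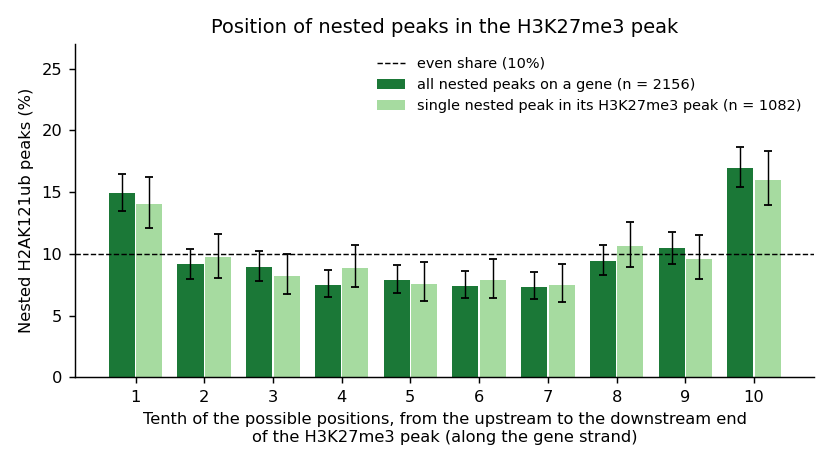
Share of nested peaks (y axis, %) in each of 10 equal parts of the positions they could take between the upstream and downstream ends of their H3K27me3 peak (x axis). Dark bars are the 2156 nested peaks on a gene, light bars the 1082 that are alone in their H3K27me3 peak, error bars are 95% Wilson intervals and the dashed line is an even share. The part farthest upstream holds 14.9% and the part farthest downstream 17.0% of the nested peaks on a gene, and those between hold 7.33% to 10.4%.

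The nested peaks sat downstream of the nearest TSS more often than upstream, as did the other classes. The median distance of a nested midpoint to the nearest TSS of a protein coding gene was 754 bp (722 to 794). Over all distances, 72.7% of the nested midpoints lay downstream, against 59.6% of crossing and 73.8% of free ones. With the sign along the gene, the nested median was 421 bp downstream (396 to 455) and the quartiles were -133.5 and 912 bp. The signed median was 264 bp for crossing and 354 bp for free peaks. The bin from 250 to 500 bp downstream held the most nested midpoints, 441 peaks or 16.9%, against 11.3% of crossing and 29.7% of free peaks. Within 500 bp of a TSS lay 34.0% of the nested midpoints (32.2 to 35.8), against 36.1% of crossing and 51.2% of free ones. The nested share was 17.2 percentage points below the free one (Newcombe interval of the difference -19.2 to -15.1), and -18.6 to -14.8 on single chromosomes. Against crossing peaks the difference was -2.12 points (-4.63 to 0.398), an interval that includes 0. At the far end, 15.4% of nested midpoints (14.0 to 16.8) were over 2000 bp from any such TSS, against 11.7% of crossing and 8.26% of free midpoints.

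A TSS lay inside 1092 nested peaks, or 41.8% (39.9 to 43.7), against 68.7% of crossing and 30.2% of free peaks. The nested share was 26.9 points lower than the crossing share (-29.4 to -24.4) and 11.5 points higher than the free share (9.47 to 13.6). Peak length moved with these differences. In nested peaks of up to 500 bp a TSS was inside 9.48%, against 10.3% of crossing and 4.55% of free peaks of that length. From 1001 to 2000 bp it was inside 46.8% of nested, 57.3% of crossing and 51.2% of free peaks, and above 4000 bp inside 86.7% of nested, 93.2% of crossing and 92.7% of free peaks. Averaged over 5 length bins with the weights of the nested peaks, the nested share differed from the crossing share by -6.86 points and from the free share by 0.704 points. Within single bins the nested share was above the free share by 4.93 points (2.58 to 7.83) up to 500 bp. From 501 to 1000 bp it was above by 8.11 points (4.54 to 11.9). Both values were smaller than the 11.5 points over all lengths. The difference was turned round from 1001 to 2000 bp (-4.41 points, -8.45 to -0.331) and above 4000 bp (-5.97 points, -12.4 to -0.307). From 2001 to 4000 bp its interval included 0 (-3.33 points, -8.05 to 1.20). Most of the excess over free peaks was thus not seen among peaks of like length.

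**Figure D2:**
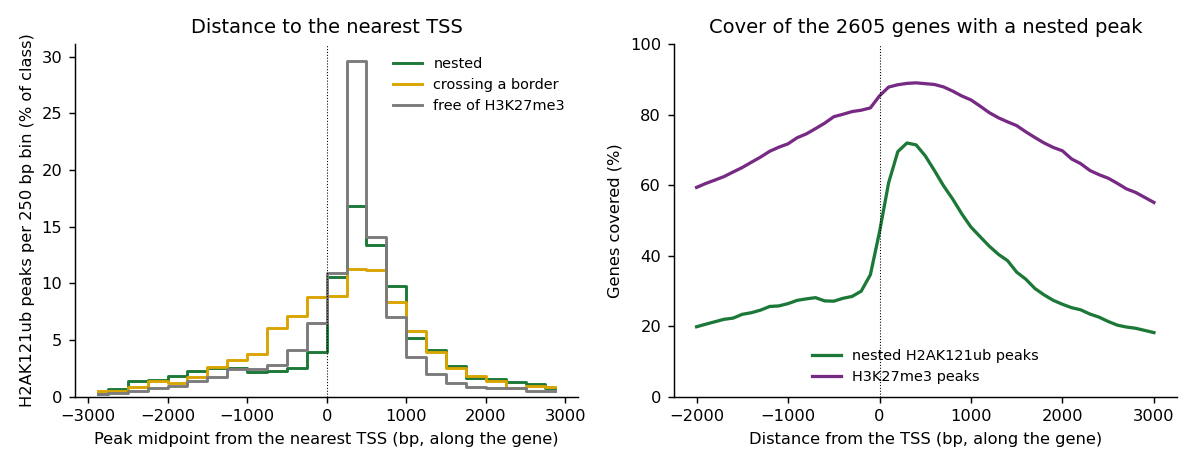
Left, share of the peaks of each class (y axis, % per 250 bp bin) by the signed distance of the peak midpoint from the nearest TSS (x axis, bp along the gene), for nested, crossing and free H2AK121ub peaks. Right, share of the 2605 genes with a nested peak (y axis, %) that are covered at each distance from the TSS (x axis, bp) by nested H2AK121ub peaks and by H3K27me3 peaks, with a maximum of 71.9% at 300 bp for nested peaks and of 89.0% at 400 bp for H3K27me3.

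The cover of the genes that carried nested peaks was read along the gene. Of the 2605 such genes, 46.7% were under a nested peak at the TSS itself, 71.9% at 300 bp downstream and 26.2% at 2000 bp downstream. H3K27me3 covered 85.3%, 88.8% and 69.7% of the same genes at these 3 points. At 1000 bp upstream the cover was 26.4% for nested peaks and 71.7% for H3K27me3. The genes were taken because a nested peak lay on the body or just upstream, and each nested peak lies inside H3K27me3 by the rule, so both the heights and the narrower outline of the nested cover follow in part from that choice and are given as a description.

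Set against gene bodies, the most frequent place of a nested peak was inside a single gene. There lay 854 nested peaks (32.7%), while 707 (27.05%) reached over the 5′ end of their gene, 267 (10.2%) over the 3′ end and 328 (12.5%) covered the whole body. Free peaks were inside a body more often, at 54.0%, a difference of -21.4 points for nested peaks (-23.4 to -19.3), and covered a whole body in 4.17%. Crossing peaks were inside a body in 13.5% and covered a whole one in 25.4%, so nested peaks stood between the other classes in both. The remaining 458 nested peaks (17.5%) touched no protein coding body, against 10.2% of crossing and 11.7% of free peaks, which was 7.33 points (5.51 to 9.16) and 5.78 points (4.24 to 7.39) more. Of these 458 peaks, 72 overlapped a long non-coding RNA gene, 76 a pseudogene and 16 a miRNA gene, 291 overlapped no annotated gene of any kind, and 66 reached the 750 bp upstream of a protein coding gene.

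Overlap with a miRNA gene was found for 24 of the 326 annotated miRNA genes (7.36%), beside 8.46% of protein coding genes with a nested peak on the body, and 19 of the 24 lay whole inside a nested peak. A share this near that of the protein coding genes is no result about miRNA genes. Those named here were picked after their overlaps were seen. They include MIR156e and MIR156g, whose miRNA holds back SPL genes that promote the change to the adult phase, and MIR172b, whose miRNA acts on AP2-type genes in the change to flowering. MIR172b lay in a nested peak of 3444 bp (chr5:1187056-1190499) and MIR160a, whose miRNA acts on auxin response factor genes, in one of 2869 bp (chr2:16338440-16341308). MIR164b, whose miRNA acts on CUC boundary genes, lay in one of 1391 bp (chr5:287097-288487), and MIR394a in one of 3284 bp (chr1:7056345-7059628). MIR169i, MIR169j, MIR169m and MIR169n shared a host peak of H3K27me3 (chr3:9870979-9886863) and overlapped pairwise 2 nested peaks of 1379 and 991 bp, with MIR169m only partly inside.

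By bases, nested peaks were richer in coding sequence than the H3K27me3 around them. Of the bases under nested peaks 38.6% were coding, against 16.0% of the bases of the same host peaks that lay outside all H2AK121ub peaks, a ratio of 2.41 that ran from 2.31 to 2.76 over the 5 chromosomes. For 5′ UTRs the shares were 4.73% and 2.20% (ratio 2.15). Intergenic bases made up 22.6% of nested peaks and 43.9% of the rest of the hosts (ratio 0.515, range 0.460 to 0.543). Bases up to 750 bp upstream of genes made up 11.7% of nested peaks and 19.3% of the rest (ratio 0.605). Free peaks had a like coding share, 41.9%, but 11.7% of their bases were 5′ UTR, and the nested share of 5′ UTR bases was 0.404 times theirs, with a range over chromosomes of 0.378 to 0.446. Against free peaks, intergenic bases were 1.66 times as frequent in nested peaks (1.40 to 1.78).

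**Figure D3:**
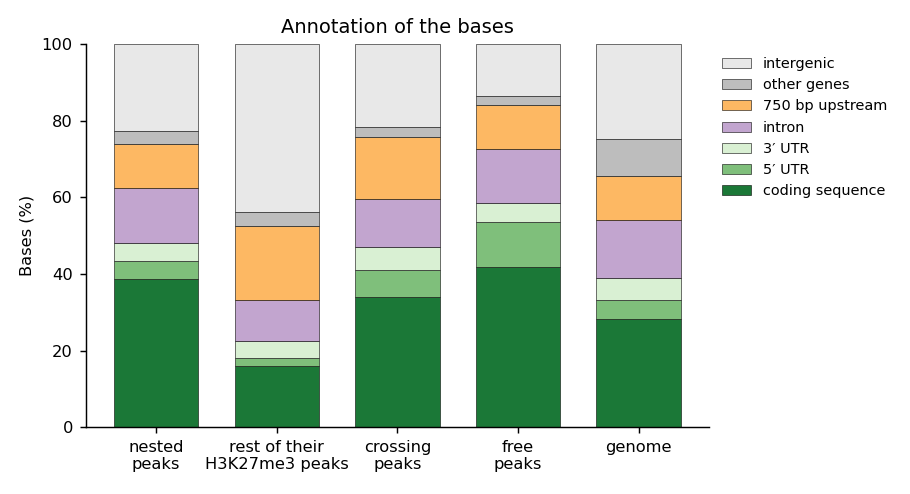
Share of bases (y axis, %) by annotation class for nested peaks, the bases of the same H3K27me3 peaks without H2AK121ub, crossing peaks, free peaks and the 5 nuclear chromosomes, as stacked bars. Coding sequence (bottom) holds 38.6% of nested and 16.0% of the other bases of their H3K27me3 peaks, and intergenic sequence (top) 22.6% and 43.9%.

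GC content was also higher in nested peaks than around them. Nested peaks had 36.9% G and C, the rest of their hosts 31.3%, crossing peaks 36.5%, free peaks 38.5% and the genome 36.0%. Compared within each of 1795 host peaks, the nested bases were richer in GC by a median of 6.74 percentage points (6.402 to 6.938), and the difference was above 0 in 1701 of them (94.8%). Medians of single chromosomes ran from 6.30 to 7.46 points. Over coding bases alone the median difference was 2.50 points (2.22 to 2.84) and 754 of 980 host peaks (76.9%) had a higher nested value.

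The RY element was more frequent in nested peaks than in free peaks or in the rest of their hosts, while against crossing peaks the interval of the difference included 0. It was found in the central 300 bp of 20.04% of the 2410 nested peaks of that length (18.5 to 21.7), against 18.8% of crossing peaks, 11.8% of free peaks, 12.9% of 300 bp windows of the rest of the hosts and 11.8% of the 397152 such windows of the genome. The nested share was 8.22 points above the free share (6.53 to 9.98, with 5.81 to 10.7 on single chromosomes), and 1.19 points above the crossing share (-0.935 to 3.34). Both kinds of sequence showed the difference from free peaks. With a coding base at the centre the element was in 15.9% of nested and 6.56% of free windows, and with a non-coding one in 23.6% of nested and 16.5% of free windows. Over whole peaks, its density was 1.04 per kb in nested peaks, 0.871 in crossing peaks, 0.574 in free peaks, 0.539 in the rest of the hosts and 0.497 in the genome. At least 1 RY element was in 1497 nested peaks, or 57.3%, against 73.0% of the longer crossing peaks and 32.4% of the shorter free peaks. At least 2 were in 36.7% of nested, 51.1% of crossing and 14.3% of free peaks. A match is a description of the sequence and not evidence that a protein binds there.

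Another 3 motifs were searched in the same windows, on both strands, each counted by itself, and matches of different motifs can share bases at their ends. The telobox AAACCCTA, read by telomere repeat binding proteins, was in 6.51% of nested windows, against 4.29% of crossing, 5.15% of free and 3.87% of genome windows. Its nested share was 1.36 points above the free one (0.335 to 2.50), and 0.0348 to 1.83 on single chromosomes. With a coding base at the centre this difference was 0.918 points (-0.514 to 2.59), an interval that includes 0. With a non-coding one it was 1.75 points (0.335 to 3.37). The GAGA repeat GAGAGA, read by BASIC PENTACYSTEINE proteins, was in 28.5% of nested windows, against 25.3% of crossing, 36.9% of free and 24.3% of genome windows. Its nested share was thus 8.38 points below the free one (-10.4 to -6.30) and 3.28 points above the crossing one (0.891 to 5.68), though on single chromosomes this difference from crossing peaks ran from -0.589 to 6.09. The G-box CACGTG, read by bHLH and bZIP factors, was in 6.68% of nested windows, against 7.48% of crossing, 5.28% of free and 3.26% of genome windows. For the G-box, the difference of 1.40 points between nested and free windows (0.360 to 2.55) ran from -0.994 to 3.001 on single chromosomes, so it did not hold on each of them. In the rest of the hosts, 18.6% of windows held the GAGA repeat, 4.20% the telobox and 2.43% the G-box. The nested shares were above these by 9.91 points (8.07 to 11.8), 2.32 points (1.36 to 3.40) and 4.25 points (3.30 to 5.33). A higher share than in the rest of the hosts was thus not particular to the RY element.

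A nested peak lay on the body or in the 750 bp upstream window of 2605 of 27444 protein coding genes, which is 9.49%, and on the body of 2321. Only 134 genes had 2 or more. Among the 2321, nested peaks covered a median of 74.4% of the body (72.6 to 76.3) and 429 bodies (18.5%) were covered whole. A nested peak touched 1 gene in 1761 cases, 2 genes in 412 cases and up to 5 genes at most. In the 976 host peaks with at least 2 protein coding genes, 1672 of 2821 gene bodies (59.3%) had a nested peak and 694 (24.6%) had no H2AK121ub peak at all. Host peaks in which each of the genes had a nested peak numbered 268 (27.5%), and 433 (44.4%) had at least 1 gene without H2AK121ub on its body.

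Transcription factor families had nested peaks on 21.2% to 27.8% of their genes, beside the 9.49% of all protein coding genes. These were 20 of 72 WRKY genes, 26 of 112 homeobox genes, 35 of 152 MYB genes, 24 of 106 NAC genes, 25 of 111 AP2/ERF genes, 27 of 120 MADS-box genes and 28 of 132 bHLH genes. A crossing peak without a nested one lay on 16 WRKY, 23 homeobox, 30 MYB, 27 NAC, 33 AP2/ERF, 13 MADS-box and 32 bHLH genes. The share of all protein coding genes with a crossing peak is not given here. Zinc finger genes were nearer the background, with 59 of 448 (13.2%). Families with other roles reached shares like those of the factors: 52 of 218 cytochrome P450 genes (23.9%) and 149 of 652 F-box genes (22.9%), which encode parts of ubiquitin ligases. Lower shares were found for 66 of 1375 protein kinase genes (4.80%), 15 of 344 ribosomal protein genes (4.36%) and 5 of 282 pentatricopeptide repeat genes (1.77%), the last encoding RNA-binding proteins of the organelles. Members of a family often lie side by side and can share a host, so these counts are not of independent genes.

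**Figure D4:**
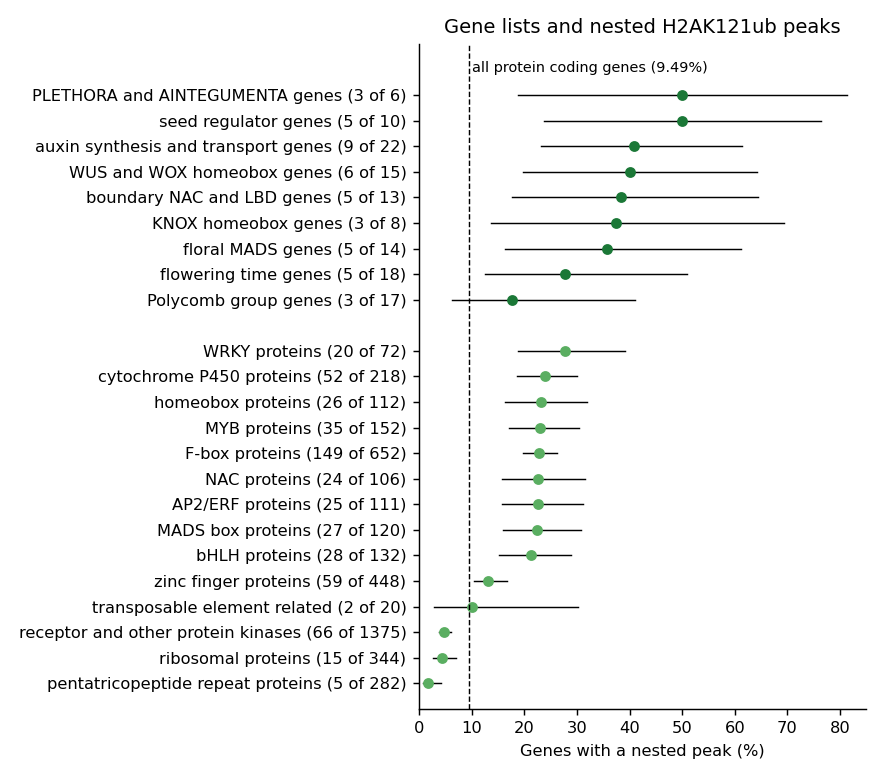
Share of the genes of each list (x axis, %) with a nested peak on the body or up to 750 bp upstream, with 95% Wilson intervals as lines. The upper 9 lists (dark points) hold developmental genes by name and the lower 14 (light points) gene families by their annotated product, and the dashed line is the share of all protein coding genes, 9.49%. The seed regulator list stands at 50.0% and the pentatricopeptide repeat family at 1.77%.

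Of 123 developmental and Polycomb genes listed by name, 44 (35.8%) had a nested peak, beside 9.49% of all protein coding genes. The lists were chosen with earlier results of these data known, and the same 9.49% stands beside the count of each list below. A crossing peak without a nested one was found on 25, H3K27me3 without H2AK121ub on 18, H2AK121ub without H3K27me3 on 26, H3K27me3 beside a free H2AK121ub peak on 2 and neither mark on 8. The shares of all protein coding genes in these other states are not given here, so these counts are a description. The 44 genes had 48 nested peaks, as 4 genes had 2. The TSS of the gene lay inside 25 of the 48 peaks, 22 peaks began downstream of it and 1, at PLT2, ended upstream of it. In 10 genes 1 nested peak covered the whole body. An RY element was present in 34 of the 48 (70.8%), beside 57.3% of all nested peaks and 73.0% of crossing peaks, and longer peaks have more room for one.

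Flowering time genes with a nested peak were 5 of 18. FLC had a nested peak of 1246 bp (chr5:3178591-3179836), from position -388 to 857 bp downstream of its TSS, in a host of 9052 bp with 1526 bp left upstream and 6280 bp downstream. It covered 14.1% of the gene body, and its intron stretch with both RY elements is printed above. A separate crossing peak began 5515 bp downstream of the FLC TSS, over the 3′ end of the gene. SOC1, an activator of flowering, had a nested peak of 2825 bp (chr2:18808258-18811082) which filled 76.2% of its host and covered 78.0% of the body, with 75 bp to the upstream border and 806 bp to the downstream one. LFY, which specifies floral meristems, was covered whole by a nested peak of 4030 bp (chr5:24843025-24847054) that ended 57 bp before the downstream border. ATC, a relative of TFL1, was covered whole by one of 5043 bp (chr2:11770925-11775967), while AGL24, an activator of flowering, had one of 1939 bp (chr4:12670630-12672568) that began 1538 bp downstream of the TSS. At these 5 genes the nested peak was thus at the start, over most or all, or only in the later part of the gene.

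Floral MADS-box genes with a nested peak were also 5, out of 14, and the other 9 had H3K27me3 without any H2AK121ub peak. One of these 9 is AG, which specifies stamens and carpels and whose H3K27me3 peak was 10071 bp long. AG was among the genes of the study's sequential ChIP, and a peak missing from the list need not mean that the mark is absent. AP3, which specifies petals and stamens, had a nested peak of 706 bp (chr3:20120512-20121217), from 97 to 802 bp downstream of the TSS and 71 bp from the upstream border. Its partner PI had one of 647 bp (chr5:6830693-6831339) at the other end of the gene, from 1789 to 2435 bp downstream of the TSS and 96 bp from the downstream border. SHP1 had 401 bp (chr3:21739125-21739525) and SEP2, a cofactor of the floral organ genes, 771 bp (chr3:466533-467303). AGL8, a fruit and flowering gene also called FUL, had 2060 bp (chr5:24504206-24506265) over 53.7% of its body. Save for that of AGL8, the nested peaks of this list were shorter than the median nested peak, and of the 5 only that of PI held an RY element, 1 in number.

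Seed regulator genes had nested peaks in 5 of 10 cases. FUS3 and ABI3, B3-domain genes of seed maturation, had long ones of 3757 bp (chr3:9854132-9857888) and 5809 bp (chr3:8996243-9002051), which took up 66.7% and 51.8% of the host. LEC2, a further B3-domain gene, had short ones of 544 bp over the TSS (chr1:9899591-9900134) and 253 bp near the 3′ end (chr1:9897022-9897274), in a host of 24548 bp with 4 nested peaks. ABI4 and BBM, both AP2-domain genes, had 1093 bp (chr2:16796638-16797730) and 2399 bp (chr5:5744548-5746946). The ABI3 peak held 10 RY elements, those of FUS3 and BBM 2 and 6, and those of LEC2 and ABI4 none.

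Among stem cell and meristem genes, WUS and its WOX relatives had nested peaks in 6 of 15 cases. The WUS peak of 4462 bp (chr2:7808865-7813326) covered the gene from position -2515 on, and WOX4, a cambium gene, was also covered whole, by 4154 bp (chr1:17235155-17239308). WOX12, of root founder cells, had 8550 bp (chr5:5881520-5890069), while its relative WOX11 had only 313 bp (chr3:891746-892058). WOX2 and WOX8, of the early embryo, had 4748 bp (chr5:23933355-23938102) and 533 bp (chr5:18648789-18649321). The KNOX genes had 3 of 8, namely KNAT2 and KNAT6 of class I and KNAT7 of class II, and KNAT2 and KNAT7 had 2 nested peaks each. The PLETHORA and AINTEGUMENTA genes had 3 of 6, with PLT1 carrying 1946 and 824 bp, PLT2 560 bp and AIL6 6941 bp. PLT5, of the same family, had a crossing peak of 8791 bp that left its H3K27me3 peak by 659 bp, and the nested peak of VIN3 lay in that same H3K27me3 peak. Boundary genes had 5 of 13 (AS2, JLO, LOB, LBD16 and LBD18).

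Auxin genes with a nested peak were 9 of 22. These were the synthesis genes TAR1, YUC2, YUC4, YUC5, YUC6 and YUC10 and the transporter genes PIN2, PIN5 and PIN8. The PIN2 peak of 5319 bp (chr5:23100641-23105959) filled 98.6% of its host, with margins of 25 and 49 bp, and the YUC4 peak of 5791 bp (chr5:3611085-3616875) filled 93.1%. By contrast, the PIN8 peak of 415 bp (chr5:4893379-4893793) took up 7.69% of its host and the YUC2 peak of 2181 bp (chr4:7721700-7723880) 8.54%. Nesting therefore took in peaks that matched their H3K27me3 peak almost base for base and peaks that were small islands in it.

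Of the 17 Polycomb genes MEA, FIS2 and VIN3 had a nested peak. This share of 17.6% (6.19 to 41.0) has an interval that includes the 9.49% of all protein coding genes. MEA and FIS2 encode PRC2 subunits of the endosperm, and VIN3 a cold-induced partner of PRC2. Their nested peaks were 2450 bp (chr1:544830-547279), 384 bp (chr2:14995177-14995560) and 1670 bp (chr5:23247540-23249209) long, and each began downstream of the TSS. FIE and EMF1 had H3K27me3 without H2AK121ub, 8 genes had H2AK121ub without H3K27me3 and 4 had neither.

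**Figure D5:**
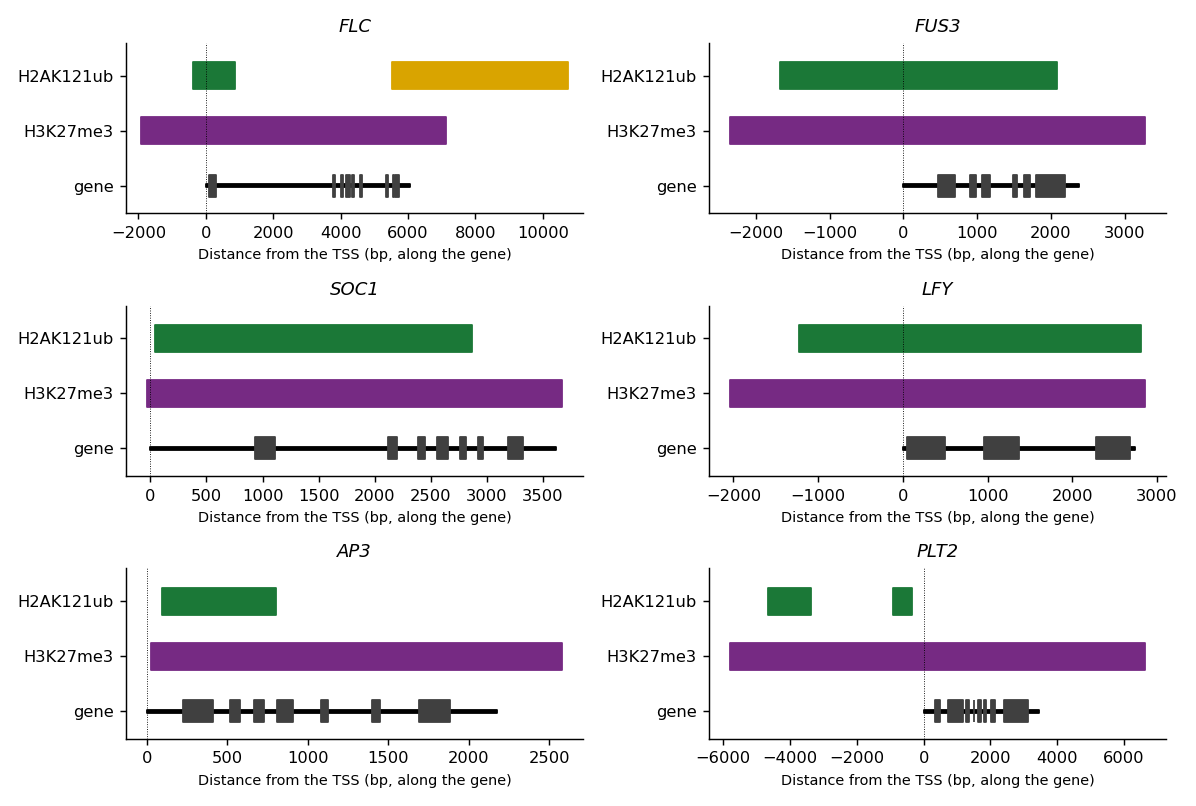
Peaks at 6 genes with a nested peak, drawn to scale by distance from the TSS (x axis, bp along the gene strand). Green bars are nested and yellow bars crossing H2AK121ub peaks, purple bars the H3K27me3 peak, black lines the gene and grey boxes coding exons. The nested peak lies at the start of FLC and AP3, over most of SOC1, FUS3 and LFY, and upstream of PLT2, where another nested peak lies farther away.

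The longest nested peaks covered pairs of genes in most cases. The longest had 14660 bp (chr4:14087056-14101715), 77.8% of its host, and spanned NAC074, a NAC factor gene, and CRU3, which encodes a seed storage cruciferin. It was followed by 10888 bp with MIF1 and MYB31 (chr1:28039562-28050449), 9529 bp with AT1G68470 and JAG (chr1:25676044-25685572), 9366 bp with AT3G25790 alone (chr3:9412219-9421584) and 8952 bp with GA2OX4 and MYB112 (chr1:17697549-17706500). JAG is a zinc finger gene of lateral organ growth and GA2OX4 encodes a gibberellin-inactivating enzyme. The nested peaks farthest from any border lay 19632, 17778 and 15848 bp inside. The first and the second shared a host of 45177 bp on chromosome 4, where the first, of 5395 bp, touched CYP705A4 and an acyltransferase gene (AT4G15390) and the second, of 106 bp, touched no gene. The third, of 333 bp, lay at AT5G45230, which is annotated as a TIR-NBS-LRR disease resistance gene.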

How the data were processed

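Per the labels and the methods of the study, the authors immunoprecipitated H2AK121ub and H3K27me3 from seedling chromatin, aligned them with Bowtie to TAIR10, ran MACS2 with its defaults on each replicate of the wild type and intersected the calls with bedtools. Versions are not given in the sources used here. The deposited lists hold 3 columns of other values, namely chromosome, start and end, read as 0-based and given here from 1. Intersecting replicates can shorten peaks, and read depth per peak is unknown. Replicates cannot be compared, so intervals cover sampling of peaks along the genome only and treat neighbouring peaks as independent.

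Genes and sequence came from the RefSeq version of the genome (TAIR10.1, same nuclear chromosome lengths), which has 37899 nuclear genes. Values were computed with Python 3.11.15, NumPy 2.4.6, pandas 2.3.3 and SciPy 1.17.1, drawn with Matplotlib 3.10.9. The TSS was the outer end of a protein coding gene. Bases took 1 class in the order of coding, 5′ UTR, 3′ UTR, intron, 750 bp upstream, other gene and intergenic. GC pairs needed 100 bases on each side. A peak was assigned to the gene body it overlapped most. Shares have 95% Wilson, differences Newcombe and medians order-statistic intervals. Functions were tested on simulated lists. Gene lists were matched by symbol, then synonym (AIL1 was not matched), or by product. Named are list genes with a nested peak, SOC1, PLT5 and AG, the longest, deepest and most crowded places and those next to the rule's limit; sequences were printed for some list genes in windows free of UTR bases. Members, lists and motifs were chosen with earlier results of these data known. Alternatives covered the rule, peak length, merged H3K27me3 peaks, the TSS set, gene bodies, motif windows, chromosome arms (100 kb windows with at least 30% genic bases) and each chromosome left out.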

Additional observations from a re-analysis of the deposited data

How the results depend on the processing

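No paired analysis was possible because replicates were merged in both lists, and for the same reason no replicate could be left out; a stricter part of the lists could not be taken, since they hold no scores. Of 151 combinations of a result and an alternative, 126 stayed within the interval or range of the value reported, 13 moved beyond it and 1 turned round. The other 11 concern the count of 2605 genes with a nested peak, which has no interval and stayed within 1.5 times. It was 2081 with both ends at least 100 bp inside, 3327 with at least 90% of bases inside and 1925 without chromosome 1. The nested share was 13.2% with both ends at least 100 bp inside and 19.6% with at least 90% of bases inside. The share of nested peaks with a TSS inside was 43.8% under that 90% rule, 47.4% with the TSS of all annotated genes and 45.4% with all transcript starts. The nested minus crossing difference in TSS share was -2.12 points by midpoints within 500 bp and -6.86 averaged over length bins. The nested minus free difference was 8.92 points with all transcript starts, 0.704 averaged over length bins and turned round to -17.2 by midpoints. The median distance to a TSS was 639 bp with all genes. The GC difference within hosts was 2.50 points over coding bases only. In the central 200 bp the nested minus free difference was -5.96 points for the GAGA repeat and 5.57 for the RY element. The difference for the G-box had an interval that included 0 without chromosome 1 (0.993, -0.192 to 2.33) or without chromosome 5 (0.919, -0.233 to 2.22). The causes were not tested, except that a narrower motif window changes a motif share by construction. Merging H3K27me3 peaks across 500 bp or dropping peaks under 200 bp changed none of the results beyond these bounds.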
